A study of Mus musculus with 4 samples.

Results

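The genes described here encode the inflammasome machinery of macrophages. They are the sensors Nlrp3, Nlrc4, Nlrp1b and Mefv, the adaptor Pycard, the caspases Casp1 and Casp4, the pore protein gasdermin D (Gsdmd), and the NLRP3 partners Nek7 and Txnip. They were taken by gene name from a table of 55401 genes, which held a row for all 10, and all 10 passed the filter on low counts that left 17260 genes for testing. RNA had been sequenced from bone marrow-derived macrophages of 8-week C57BL/6 mice, grown with M-CSF and kept for 24 h together with cells of MC38, a colon carcinoma line of the mouse. Of the 4 libraries, 2 were controls (Mettl3fl/fl, numbered 1 and 3) and 2 were knockouts (LysM-cre, Mettl3fl/fl, also numbered 1 and 3). Both groups thus carried the floxed Mettl3 allele, and they differed in the Cre driver. LysM-cre is active in myeloid cells. Mettl3 encodes the catalytic subunit of the enzyme that writes N6-methyladenosine on mRNA. The number of animals behind each library is not stated in the labels.

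An inflammasome is a cytosolic platform that assembles when a sensor meets a danger signal. The sensor recruits the adaptor ASC, the product of Pycard, which gathers and activates caspase-1, and caspase-1 then matures interleukin-1 beta and interleukin-18 and cuts gasdermin D. The freed N-terminal part of gasdermin D forms pores in the plasma membrane and the cell dies by pyroptosis. In macrophages Nlrp3 and Il1b are known to be raised by Toll-like receptor signals before the platform assembles, so mRNA levels report the first of the steps and not the activity of the complex.

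Total counts ran from 55100415 to 79209870 per library. Libraries of the same number resembled each other most, and the number coincided with sex-linked transcripts. Levels within a gene are given as CPM, which are counts per library size after scaling for composition. The X-inactivation transcript Xist measured 0.589 and 0.624 CPM in control 1 and knockout 1, and 1351 and 1162 CPM in control 3 and knockout 3 (chosen after its values were seen). Each pooled difference therefore comes with its 2 parts, the log2 ratio of knockout to control in number 1 and in number 3, which are single ratios without a test. Mettl3 itself held 18.3 and 23.2 CPM in the control libraries, against 13.9 and 19.6 CPM in the knockout libraries, which overlapped. Each knockout was below the control of its number, with single ratios of -0.40 in number 1 and -0.25 in number 3. The pooled log2 difference was -0.31 (SE 0.27, 2 libraries per group, edgeR unadjusted p = 0.306). A count over the whole gene does not show whether the floxed part was lost. The macrophage markers were present, with Adgre1 (F4/80) at 4847 to 7501 CPM. Of 10 epithelial markers, Epcam, Krt8, Krt18, Cldn4 and Krt20 had no count in any library, which allows up to 0.152 to 0.221 CPM per library at a floor of 12 counts. Only Krt19 exceeded 12 counts, and the summed level of the list was 0.589 to 1.52 CPM. In bulk RNA, fewer cells of a type and less RNA per cell cannot be told apart.

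Levels of different genes were compared per length, by the FPKM values the authors deposited. Txnip was the most abundant of the 10, at 181.7 and 119.7 FPKM in controls 1 and 3 and 178.1 and 120.3 FPKM in knockouts 1 and 3. Mefv followed at a mean of 41.0 FPKM over the 4 libraries and Gsdmd at 36.4 FPKM. The next in order were Pycard (mean 19.0 FPKM), Casp1 (16.7), Nlrp3 (14.6), Nlrc4 (12.1), Casp4 (8.36), Nlrp1b (7.10) and Nek7 (6.20). Neighbours in this order separated without overlap of their libraries at 3 places, between Txnip and Mefv, between Gsdmd and Pycard, and between Nlrc4 and Casp4. All other neighbours overlapped. The sensor of the pyrin inflammasome and the executioner of pyroptosis were thus each above the adaptor and caspase-1 in mean FPKM. In the plot of levels by library, this order and the split of Txnip by library number can be seen.

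**Figure D1:**
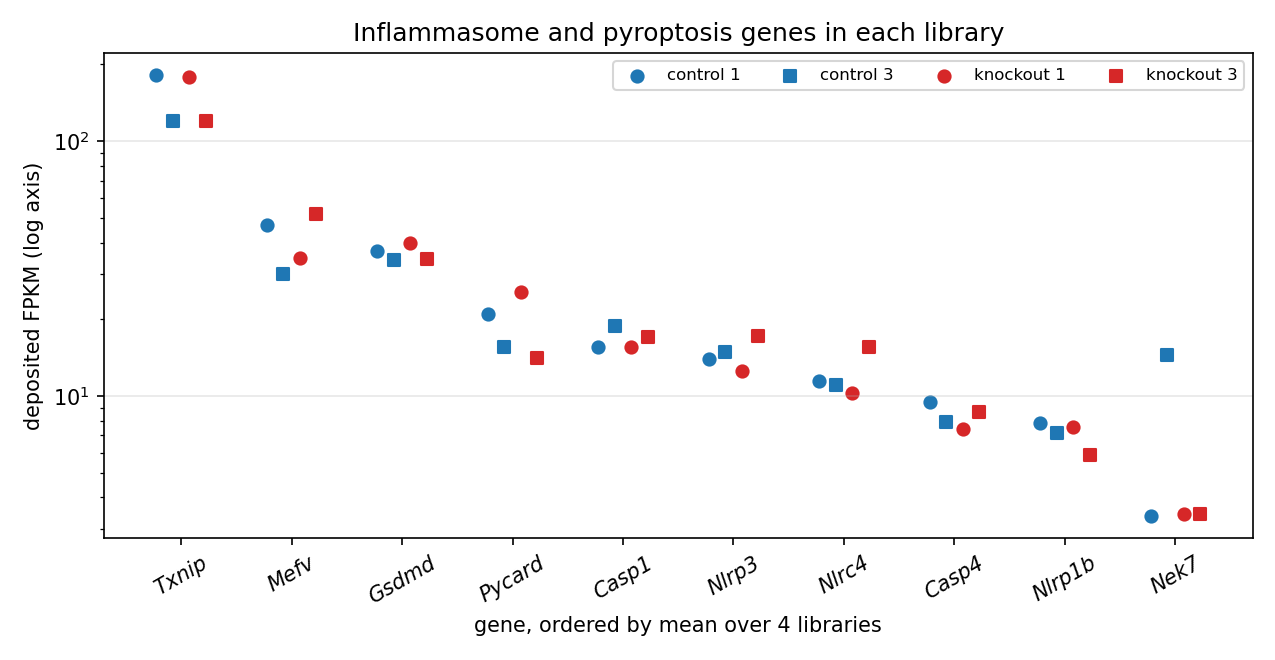
Deposited FPKM of the 10 genes in each library on a log axis, with genes ordered by their mean over the 4 libraries; blue is control, red is knockout, circles are number 1 and squares number 3. Txnip lies above all others, and control 3 alone carries a high value of Nek7 (14.5 FPKM against 3.37 to 3.45 FPKM).

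The comparison of knockout with control asks whether macrophages with the Cre driver hold different amounts of these transcripts after exposure to tumour cells. None of the 10 genes passed the test. At an adjusted p under 0.05, edgeR called 0 members, and it called 0 of all 17260 tested genes (0%, with 391 genes, 2.27%, at an unadjusted p under 0.05). DESeq2 called 0 members and 74 of 25066 genes (0.295%, split into 0.168% higher with Cre and 0.128% lower). Before adjustment, at p under 0.05, edgeR placed 0 of the 10. DESeq2 placed 1, Nek7, where it placed 2.42% of all genes. The members lay evenly around 0, with 5 fold changes above and 5 below and a median of 0.02 on the log2 scale, against -0.00 over all tested genes. In none of the 10 did both knockouts lie on one side of both controls, whereas the groups did not overlap in 26.5% of all tested genes. For 7 of the 10 the difference had opposite signs within number 1 and within number 3, against 46.9% of the 16287 genes for which both differences could be formed. For 9 of the 10 the pooled fold change was under 1.2 in either direction. With 2 libraries per group, and no term for library number in this fit, the intervals were wide. Differences between the numbers count in them as spread within a group. They are given so that the sizes which this fit could not show can be read.

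**Figure D2:**
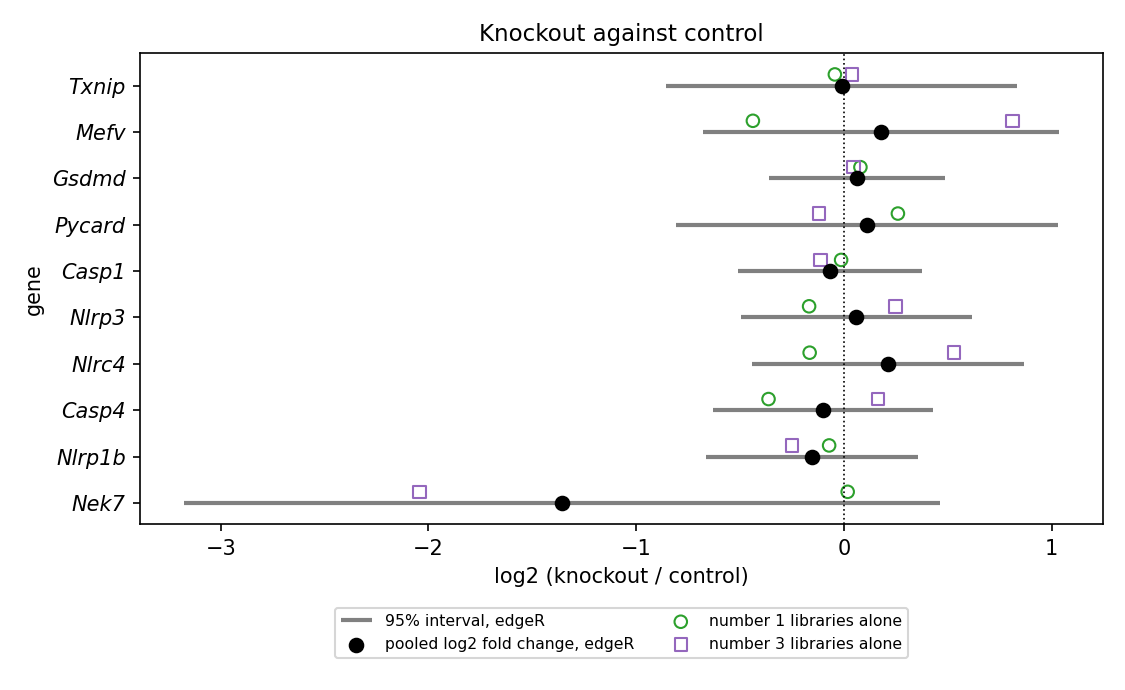
Log2 ratio of knockout to control for each gene; black points and grey bars are the pooled edgeR estimate and its 95% interval (2 libraries per group), open circles the number 1 libraries alone and open squares the number 3 libraries alone. All 10 intervals include 0, and Nek7 stands apart through the number 3 libraries (-2.04) while the number 1 libraries differ by 0.02.

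Among the sensors, Nlrp3 responds to ion fluxes, crystals and membrane damage. Nlrp3 (ENSMUSG00000032691, chromosome 11, 59541568 to 59566956, plus strand) gave 63.4 CPM in control 1, 66.0 CPM in control 3, 56.5 CPM in knockout 1 and 78.4 CPM in knockout 3. The knockouts enclosed the controls, with the lowest and the highest of the 4 values. On the log2 scale the knockouts differed from the controls by 0.06 (SE 0.21, 2 libraries per group, edgeR unadjusted p = 0.791, adjusted p = 1). The single ratios were -0.17 in number 1 and 0.25 in number 3. The 95% interval of the pooled difference ran from a 0.708-fold to a 1.53-fold level in the knockouts.

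Nlrc4 is the platform engaged by NAIP proteins that have bound flagellin or parts of bacterial secretion systems. Nlrc4 (chromosome 17, 74425438 to 74459142, minus strand) measured 61.7 and 58.3 CPM without Cre, and 55.0 and 84.1 CPM with it. Knockout 3 was the highest library and knockout 1 the lowest. The pooled log2 difference was 0.21 with an SE of 0.25 (2 libraries per group, edgeR unadjusted p = 0.430). The single ratios were -0.17 in number 1 and 0.53 in number 3. A processed pseudogene, Gm4708, overlaps Nlrc4 on the same strand at a far lower count. Naip2, which recognises secretion system proteins, had the same shape, at 157.6 and 146.2 CPM in the controls and 145.5 and 212.4 CPM in the knockouts (chosen after its values were seen).

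Mefv encodes pyrin, which senses the inactivation of RhoA by bacterial toxins and is mutated in familial Mediterranean fever. Mefv (chromosome 16, 3707218 to 3718097, minus strand) held 170.9 and 107.6 CPM in the control libraries, against 126.2 and 189.0 CPM in the knockout libraries. The controls lay inside the range of the knockouts only for control 1, since control 3 was the lowest library and knockout 3 the highest. The difference was -0.44 within number 1 and 0.81 within number 3, a spread that left a pooled log2 difference of 0.18 (SE 0.32, 2 libraries per group, edgeR unadjusted p = 0.608). Without knockout 3 the log2 fold change was -0.14, and without control 1 it was 0.56, where leaving out 1 library mixes number with genotype. Mefv, Nlrc4 and Nlrp3 were the 3 members with their highest value in knockout 3.

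Nlrp1b, which is activated when its N-terminal part is cut and degraded, is known for sensing anthrax lethal factor, a property that varies between mouse strains. Nlrp1b (chromosome 11, 71153102 to 71230733, minus strand) gave 55.5 CPM in control 1, 49.5 CPM in control 3, 52.8 CPM in knockout 1 and 41.6 CPM in knockout 3. Each knockout was below the control of its number, by 0.07 and 0.25 on the log2 scale, but knockout 1 was above control 3. On the log2 scale the knockouts differed from the controls by -0.15 (SE 0.19, 2 libraries per group, edgeR unadjusted p = 0.468). Nlrp1b lies in tandem with its close relatives Nlrp1a and Nlrp1c-ps, so the counts of the 3 genes are uncertain. Nlrp1a measured 17.3 and 15.6 CPM without Cre, and 17.7 and 24.2 CPM with it, and Nlrp1c-ps 21.8 and 20.4 against 19.4 and 13.8 CPM (both chosen after their values were seen).

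The groups overlapped for the adaptor and the effectors as well. Pycard (chromosome 7, 127989708 to 127993867, minus strand) held 89.8 and 64.9 CPM in the control libraries, against 107.6 and 59.7 CPM in the knockout libraries. The 2 libraries numbered 1 were above the 2 numbered 3, and the knockouts enclosed the controls. The pooled log2 difference was 0.11 with an SE of 0.35 (2 libraries per group, edgeR unadjusted p = 0.760). The single ratios were 0.26 in number 1 and -0.12 in number 3.

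Casp1, the protease at the centre of the canonical pathway, varied little. Casp1 (chromosome 9, 5298508 to 5307290, plus strand) gave 54.9 CPM in control 1, 64.6 CPM in control 3, 54.4 CPM in knockout 1 and 59.8 CPM in knockout 3, so that its highest library was 1.19 times its lowest. On the log2 scale the knockouts differed from the controls by -0.07 (SE 0.17, 2 libraries per group, edgeR unadjusted p = 0.712), and the 95% interval ran from 0.703-fold to 1.299-fold. Casp4 lies next to Casp1 on the same strand (chromosome 9, 5308828 to 5336783) and encodes the caspase that binds cytosolic lipopolysaccharide in the non-canonical pathway. It measured 39.4 and 32.2 CPM without Cre, and 30.6 and 36.1 CPM with it, with -0.36 within number 1 and 0.17 within number 3. Its pooled log2 difference was -0.10 with an SE of 0.20 (2 libraries per group, edgeR unadjusted p = 0.637). The 2 neighbouring caspase genes did not share an order of libraries: control 3 was the highest for Casp1 and control 1 for Casp4.

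Gsdmd (chromosome 15, 75862327 to 75867408, plus strand) had the narrowest range of the 10, its highest library being 1.18 times its lowest. It held 99.2 and 89.0 CPM in the control libraries, against 104.8 and 91.8 CPM in the knockout libraries. Each knockout was above the control of its number, by 0.08 and 0.04 on the log2 scale, while knockout 3 was below control 1. On the log2 scale the knockouts differed from the controls by 0.06 (SE 0.16, 2 libraries per group, edgeR unadjusted p = 0.710), and the 95% interval ran from 0.7797-fold to 1.40-fold.

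Nek7, a mitotic kinase that binds NLRP3 and is required for its oligomerisation, was set apart by 1 library. Nek7 (ENSMUSG00000026393, chromosome 1, 138482875 to 138620141, minus strand) stood at 27.9 CPM in control 1, 28.3 CPM in knockout 1 and 28.5 CPM in knockout 3, and at 117.6 CPM in control 3. These 3 libraries were thus nearly equal and control 3 was 4.12 times the highest of them, from counts of 1517, 1768, 2259 and 7284 in the same order. The deposited FPKM showed the same, at 3.37, 3.45 and 3.45 against 14.5. The pooled log2 difference of -1.36 (SE 0.69, 2 libraries per group) did not pass (edgeR unadjusted p = 0.111, adjusted p = 1; DESeq2 unadjusted p = 0.0272, adjusted p = 1). Without control 3 it was 0.03, and the difference within number 1 was 0.02. The low values in both knockouts are therefore matched by control 1.

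Few genes had such a ratio in control 3. It stood at least 4 times above the highest other library for 18 of the 17260 tested genes (0.104%), and at least 2 times above it for 1.55%. Over all tested genes, 17 had a larger ratio than Nek7. Among the 1725 genes at least as abundant in control 3 as Nek7, 1 had a larger ratio. That set was chosen by the control 3 level, which also enters the ratio, so it does not show how rare the ratio is. The gene was Emp1, a membrane protein gene, at 148.1 CPM in control 3 against 10.8 to 17.7 CPM elsewhere (chosen after its values were seen). Control 3 also had the highest sum of the 8 fibroblast markers, at 811.9 CPM against 335.7 to 502.8 CPM, all 8 being detected, and its Lyz2 stood at 40813 CPM against 22069 to 25785 CPM. Their part in the Nek7 value was not tested. The genes annotated inside Nek7 (Gm28501, Gm37101 and Gm37080) had no count in any of the 4 libraries except Gm37101, whose counts stayed under the floor.

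Txnip was split by library number, with the genotypes close to each other within each number. Its product binds thioredoxin, limits glucose uptake and has been described as a ligand of NLRP3 under oxidative stress. Txnip (ENSMUSG00000038393, chromosome 3, 96557957 to 96561883, plus strand) stood at 637.0 and 618.0 CPM in control 1 and knockout 1, and at 410.0 and 420.9 CPM in control 3 and knockout 3. The libraries numbered 1 were well above those numbered 3, and the log2 ratio of knockout to control was -0.04 in number 1 and 0.04 in number 3. The pooled log2 difference between genotypes was -0.01 (SE 0.32, 2 libraries per group, edgeR unadjusted p = 0.973). The antisense gene Gm15441 overlaps Txnip at a far lower level. The Txnip promoter, the 250 bases before the RefSeq start (GRCm38.p6, chr3:96557707-96557956, plus strand, written 5′ to 3′), is shown because this gene was the most abundant member and its libraries split by number. Capitals mark a carbohydrate response element, searched as 2 copies of CACGNG with 5 bases of any kind between them, and the CCAAT boxes, each on either strand.
Txnip: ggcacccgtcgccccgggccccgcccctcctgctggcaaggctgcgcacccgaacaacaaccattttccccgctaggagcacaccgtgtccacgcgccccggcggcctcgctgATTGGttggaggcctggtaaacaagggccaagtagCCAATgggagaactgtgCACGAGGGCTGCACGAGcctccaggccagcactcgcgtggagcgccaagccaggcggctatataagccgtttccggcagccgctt
The carbohydrate response element, which binds glucose-responsive factors, began 85 bases before the start and does not overlap the CCAAT boxes, which began 137 and 102 bases before it. The element was found in 15 of 32851 promoter windows (0.0457%), and CCAAT in 33.8%, and a match describes letters and not a bound site. Of the 10 genes 9 had a promoter in the RefSeq table and Gsdmd did not. No other of these 9 held the element in its window. Arrdc4, a related arrestin-domain gene also known as a glucose-responsive target, stood at 82.5 and 62.9 CPM in the number 1 libraries and at 60.8 and 51.4 CPM in the number 3 libraries. Thioredoxin itself, Txn1, stood at 171.5 and 165.0 CPM in the number 1 libraries and at 208.8 and 247.8 CPM in the number 3 libraries. Txnrd1, the reductase of thioredoxin, stood at 25.1 and 25.4 FPKM against 50.5 and 41.9 FPKM. These 3 genes were chosen after their values were seen. None of the 3 passed edgeR between numbers, with adjusted p = 0.367 for Arrdc4, 0.182 for Txn1 and 0.0635 for Txnrd1. Libraries separated by number in 51.4% of all tested genes. Whether glucose or the thioredoxin genes have a part in the split of Txnip by number was not tested.

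The libraries were also compared by number, over both genotypes and without a term for genotype. The 2 libraries numbered 3 lay on one side of both libraries numbered 1 for 7 of the 10 genes, 3 above (Nlrp3, Casp1 and Nek7) and 4 below (Nlrp1b, Pycard, Gsdmd and Txnip). Among all tested genes the share was 51.4% (26.2% above and 25.2% below), so a count of this kind was common in these libraries. For Txnip the log2 fold change of number 3 against number 1 was -0.60 (SE 0.11, 2 libraries per number, edgeR unadjusted p = 0.00295, adjusted p = 0.0912). For Pycard it was -0.66 (SE 0.14, 2 libraries per number, edgeR unadjusted p = 0.00529, adjusted p = 0.111). These were the 2 members with an edgeR unadjusted p under 0.05, which 18.2% of all genes had. Neither passed after adjustment: edgeR called 0 of the 10 and 1.03% of all genes in this comparison. Both were called by DESeq2, with adjusted p = 0.00233 for Txnip and 0.00899 for Pycard, among 6.27% of all genes. For the remaining 8 the edgeR unadjusted p was above 0.05, and Mefv had the smallest difference, with a log2 fold change of -0.00 that joined -0.67 in the controls to 0.58 in the knockouts. Monocyte markers moved with the number as well: the sum of 5 markers, all detected, was 1829 and 1279 CPM in control 1 and knockout 1 and 635.9 and 419.5 CPM in control 3 and knockout 3. The neutrophil sum was also lower in number 3, at 315.8 and 428.3 CPM against 695.9 and 483.0 CPM. That sum was mostly Csf3r, while S100a8 was higher in number 3 within both genotypes. The median log2 fold change of the 5 tested neutrophil markers was 0.28, in the other direction. The fibroblast sum was higher in number 3, at 811.9 and 502.8 CPM against 427.2 and 335.7 CPM. The macrophage sum was too, at 54304 and 42633 CPM against 38390 and 40658 CPM. That macrophage sum was mostly Lyz2, at 40813 and 25785 CPM in number 3 against 22069 and 25451 CPM in number 1. Not all of the 8 macrophage markers were higher in number 3, and their median log2 fold change was 0.09. The part of these cell types in the Txnip and Pycard differences was not tested, and number, sex-linked transcripts and these markers cannot be told apart with 2 libraries each.

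**Figure D3:**
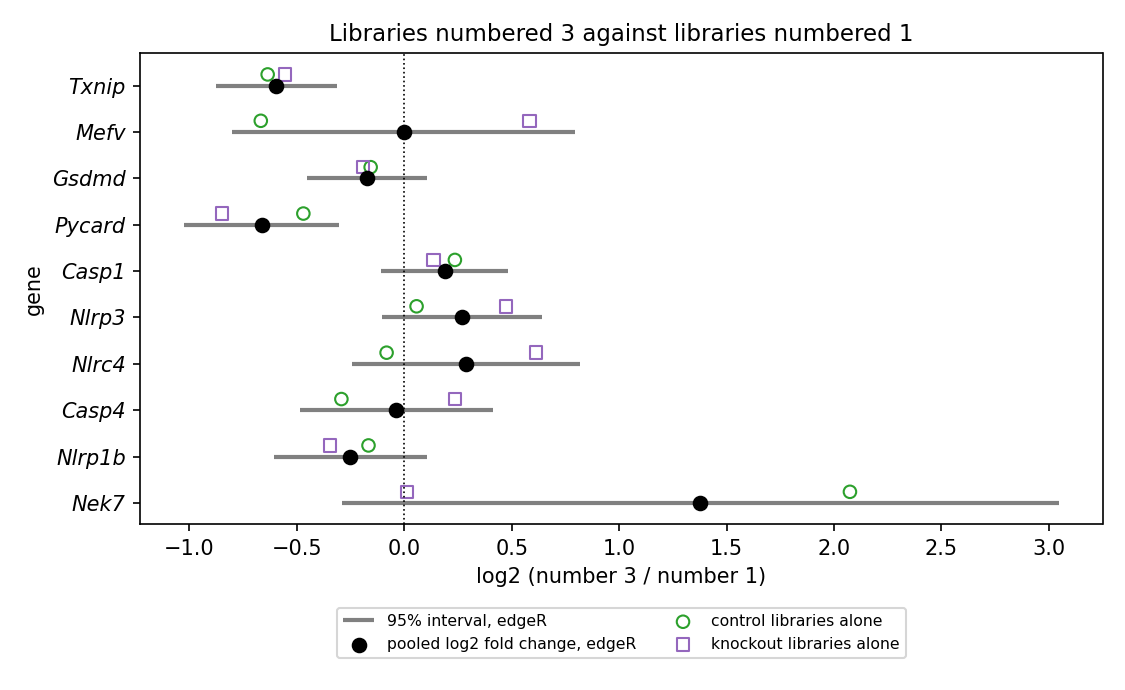
Log2 ratio of the libraries numbered 3 to those numbered 1 for each gene; black points and grey bars are the pooled edgeR estimate and its 95% interval (2 libraries per number), open circles the control libraries alone and open squares the knockout libraries alone. The intervals of Txnip and Pycard lie below 0, and Nek7 stands high through the controls (2.07) while the knockouts differ by 0.01.

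Genes that work beside the inflammasome were followed in 5 lists with 71 genes, of which 68 were tested. No gene of these lists passed edgeR, 5 of 68 had an unadjusted edgeR p under 0.05 (2.27% of all tested genes), and DESeq2 called 1, Tlr4, as higher (0.168% of all genes were called higher by DESeq2). For 20 of the 68 the knockouts exceeded both controls and for 2 they were under them, where all tested genes gave 13.1% and 13.4%. The median log2 fold change of the 68 was 0.07, with 0.04 within number 1 and 0.23 within number 3. Over all tested genes these medians were -0.0013, 0.0036 and -0.019. The lists were chosen with earlier results of these data known, and the median within number 3 rests on 1 library per genotype.

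Among triggers and priming factors, Tlr4 had the largest log2 difference of all 68. Tlr4, the lipopolysaccharide receptor, gave 23.1 CPM in control 1, 12.03 CPM in control 3, 170.9 CPM in knockout 1 and 110.7 CPM in knockout 3 (log2 difference 3.00, SE 0.43, 2 libraries per group; DESeq2 adjusted p = 7.13e-09; edgeR adjusted p = 1). P2rx7, the ATP-gated channel whose opening lets potassium leave the cell and triggers NLRP3, measured 114.3 and 106.9 CPM without Cre, and 176.1 and 187.1 CPM with it. Both knockouts were above both controls, and the difference held within each number, at 0.62 and 0.81. The pooled log2 difference was 0.72 with an SE of 0.15 (2 libraries per group, edgeR unadjusted p = 0.00572, adjusted p = 1; DESeq2 adjusted p = 0.225), so it did not pass in these fits, which hold no replicate block. Gbp2 and Gbp5 encode interferon-induced GTPases that open bacterial vacuoles and expose ligands to the non-canonical pathway. Gbp2 stood at 42.9 and 27.3 CPM against 64.8 and 59.7 CPM, and Gbp5 at 12.8 and 5.41 CPM against 23.4 and 16.3 CPM (edgeR unadjusted p = 0.0296 and 0.0745, DESeq2 adjusted p = 0.791 and 1, both without a replicate block). The list of 16 tested genes had 13 fold changes above 0 (49.8% over all tested genes) and a median of 0.07.

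Of the 13 other sensors tested, 10 had a fold change above 0, and both knockouts were above both controls for 6 and below them for 0. Over all tested genes 49.8% lay above 0, and the knockouts were above both controls in 13.1% and below them in 13.4%. Their median log2 fold change was 0.24, with 0.07 within number 1 and 0.48 within number 3. Naip5 and Naip6, which bind flagellin and feed Nlrc4, stood at 56.9 and 52.7 against 61.9 and 67.5 CPM, and at 26.1 and 27.7 against 32.5 and 37.2 CPM. The NAIP genes are close copies in tandem, so reads may be split among them. Nlrc5, a regulator of MHC class I genes, stood at 76.5 and 61.2 CPM against 84.2 and 97.5 CPM, and Nlrp10 at 3.99 and 3.02 CPM against 6.06 and 4.37 CPM. The edgeR unadjusted p-values of these 4 genes were 0.0919 to 0.178, so none passed. The groups overlapped for the DNA sensor Aim2, at 31.5 and 30.6 CPM in the controls and 26.0 and 35.1 CPM in the knockouts (log2 difference -0.02, SE 0.22, 2 libraries per group; edgeR unadjusted p = 0.920).

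The substrates of caspase-1, Il1b and Il18, did not pass either. Il1b held 2213 and 891.1 CPM in the control libraries, against 1540 and 1239 CPM in the knockout libraries, with both knockouts between the 2 controls (log2 difference -0.16, SE 0.47, 2 libraries per group; edgeR unadjusted p = 0.751). Il18 gave 5.52 CPM in control 1, 5.09 CPM in control 3, 6.57 CPM in knockout 1 and 6.44 CPM in knockout 3, which did not overlap (log2 difference 0.30, SE 0.27, 2 libraries per group; edgeR unadjusted p = 0.335). Il1rn, the receptor antagonist, was lowest in knockout 1, at 28.2 CPM against 58.1 to 86.6 CPM in the other libraries. Il1r1, the signalling receptor, measured 47.1 and 11.4 CPM without Cre, and 24.7 and 9.08 CPM with it. Of the 9 genes in this list, 5 had a fold change above 0 (49.8% over all tested genes) and the median was 0.02.

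Effectors of lytic death other than gasdermin D had 9 of 11 fold changes above 0, a median of 0.19, and 5 genes with both knockouts above both controls. Over all tested genes 49.8% lay above 0, and 13.1% had both knockouts above both controls. Zbp1, the sensor of Z-form nucleic acids, held 57.4 and 50.1 CPM in the control libraries, against 79.2 and 111.2 CPM in the knockout libraries (log2 difference 0.82, SE 0.22, 2 libraries per group; edgeR unadjusted p = 0.0168, adjusted p = 1; DESeq2 adjusted p = 0.532). Mlkl, the pore protein of necroptosis, stood at 32.3 and 28.8 CPM against 41.99 and 44.04 CPM (log2 difference 0.49, SE 0.17, 2 libraries per group; edgeR unadjusted p = 0.0348). Ripk1, a kinase upstream of necroptosis, stood at 173.1 and 148.1 CPM against 185.4 and 191.5 CPM. None of these passed over all genes. Whether Zbp1, Mlkl or P2rx7 differed more between genotypes than the 10 members was not tested.

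The regulators were spread around 0, with 10 of 19 tested genes above it (49.8% over all tested genes) and a median of 0.01. Dpp9, the peptidase that restrains NLRP1B, gave 66.4 CPM in control 1, 63.2 CPM in control 3, 57.0 CPM in knockout 1 and 49.2 CPM in knockout 3 (log2 difference -0.29, SE 0.16, 2 libraries per group; edgeR unadjusted p = 0.137). Bcl2l1, an inhibitor of cell death, stood at 34.1 and 19.8 CPM against 42.6 and 37.8 CPM. Tnfaip3, the NF-kB inhibitor A20, was highest in knockout 3, at 164.9 CPM against 59.1 to 96.0 CPM in the other libraries. Ripk2 stood at 16.8 and 15.3 CPM against 17.5 and 21.9 CPM. In the plot of the lists, the 10 members gather near 0 apart from Nek7, and the filled points are in the other lists.

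**Figure D4:**
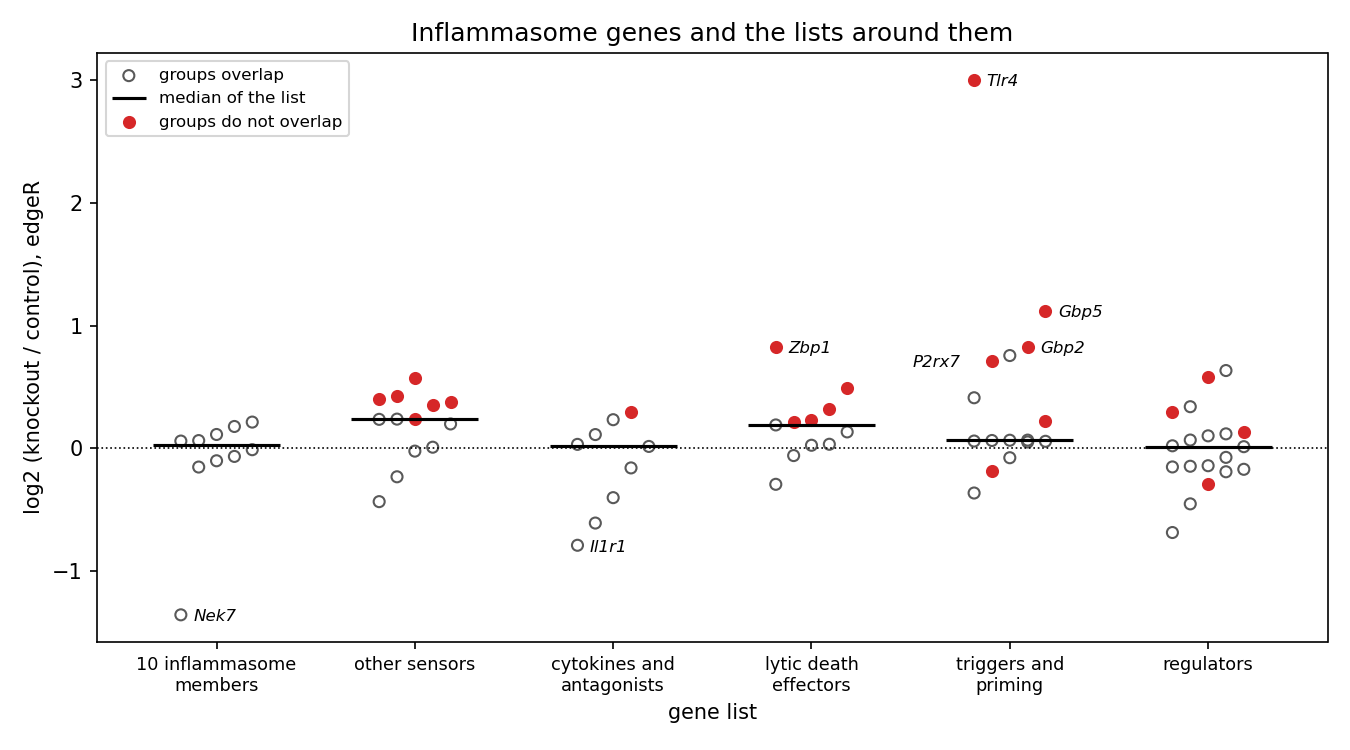
Log2 ratio of knockout to control by edgeR for each tested gene of the 10 members and of 5 lists around them; filled points are genes whose 2 knockouts lie on one side of both controls, open points those that overlap, and bars the median of each list. No member is filled, against 22 of the 68 companion genes and 26.5% of all tested genes.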

How the data were processed

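RNA was sequenced from 4 libraries, and the authors deposited 1 table with estimated counts, whole numbers not normalized, and FPKM per gene, per the file headers. cutadapt 1.9, HISAT2 2.0.4, StringTie 1.3.4d, edgeR and DESeq2 are named in the submitters' processing notes, without a role. The dUTP library step marks strand, per the labels' protocols; whether counting used it, the treatment of reads with several matches, and the genome build are not given in the sources used here. Start and end matched GENCODE M21 (GRCm38) for 94.2% of 55141 shared identifiers. A further 4 columns of 2 unmatched names were not used. Between 38.7% and 39.6% of low counts (1 to 24) were multiples of 4, so a read pair may give about 4 counts, and the floor of 12 counts stands for 3 pairs; it covers counting error only.

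Counts were tested with edgeR 4.0.16 (R 4.3.3; quasi-likelihood, TMM, filterByExpr, two-sided, Benjamini-Hochberg over all tested genes, threshold 0.05). Levels in CPM use library sizes after TMM, and each standard error was derived from a log2 ratio and its F value. DESeq2 1.42.0 and limma 3.58.1 on log2(FPKM + 1) were alternatives, with other scalings and filters, a block for library number, and each library omitted in turn. The tests were tried on simulated data. The p-values measure the spread between 2 libraries per group. The members and lists were chosen with earlier results of these data known. Named genes were all members, Mettl3, Lyz2, Il1b, Il18, Aim2 and Tlr4, up to 4 genes per companion list with the smallest edgeR p, and the most abundant markers; others are marked, and 1 gene under this rule is not reported here. Promoters are RefSeq's (GRCm38.p6). Of the other marker lists, neutrophil, dendritic and lymphoid sums were 315.8 to 695.9, 2.37 to 3.49 and 0.355 to 0.752 CPM; the neutrophil sum was mostly Csf3r (297.0 to 681.1 CPM), and Ly6g, Retnlg and Cxcr2 had no count.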

Additional observations from a re-analysis of the deposited data

How the results depend on the processing

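Over 11 settings that kept all 4 libraries, 1 of 110 values of the members' genotype difference changed direction, Txnip, which turned to 0.0013 in DESeq2 with the replicate block. Nek7 passed at -0.89 (adjusted p = 0.0440) in limma on log2(FPKM + 1) without a filter on FPKM. In that fit 54.8% of genes had no residual variance, for which limma warns that its variance estimate is unreliable; it called 358 genes and 1 member. DESeq2 called 74 genes and, with the replicate block, 175, and 0 members in both; with the block it also passed P2rx7 (adjusted p = 0.0289), Gbp2 (0.0322) and Gbp5 (0.0206). All remaining settings called 0 genes and 0 members; since members' adjusted p was near 1 in edgeR, that says nothing about stability. Libraries of equal number deviated together (correlation 0.42 across genes), but 2 pairs and the labels do not show a pairing. With the replicate block in edgeR the log2 fold change of Nek7 was -1.02 and 0 genes were called. The SE was then 0.12 for Txnip and 0.15 for Pycard, against 0.32 and 0.35 without the block. For Mefv it was 0.33 with the block and 0.32 without. With 1 library left out, 16 of 40 values changed sign and 0 genes were called; the lone library is then assumed to vary like the other group. The values ran from -0.20 to 0.29 for Nlrp3, -0.12 to 0.50 for Nlrc4, -0.32 to 0.0091 for Nlrp1b, -0.36 to 0.48 for Pycard and -0.17 to 0.0604 for Casp1. They ran from -0.24 to 0.0601 for Casp4, -0.0184 to 0.16 for Gsdmd, -2.04 to 0.0283 for Nek7, -0.30 to 0.35 for Txnip and -0.14 to 0.56 for Mefv. Between library numbers, edgeR called 177 genes, 122 with genotype as a term, and DESeq2 1572. Mefv turned to 0.0034 in DESeq2 there. Txnip and Pycard kept their direction and were the only members that DESeq2 called, as given above.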
